A study of Homo sapiens with 8 samples.

Results

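The zinc finger genes of human chromosome 19 were examined in *TET1*-depleted HCT116 cells, a colorectal cancer cell line. The array was searched for probes that are not controls, whose gene name is ZNF followed by digits and an optional capital letter, and whose annotated position is on chromosome 19 (hg19). This gave 367 of 50599 probes, which stand for 245 of 34423 gene names. In the RefSeq gene table (GRCh38.p14), 242 of them are found by their present symbol and 3 by an older one, and 237 are protein coding and 8 are transcribed pseudogenes. All 4 clones carry a stably integrated miRNA vector under G418 selection. CONT1 and CONT2 express a control miRNA, TET1-KD1 and TET1-KD2 express 2 different miRNAs against *TET1*, and each of the 4 is a single clone. Every clone was measured once untreated and once after 1 µM 5-aza-dC for 72 h, so that the 4 conditions (CONT untreated, CONT 5-aza-dC, TET1-KD untreated and TET1-KD 5-aza-dC) have 2 arrays each, from 2 clones. The titles state the treatment of each array and were followed, although a second label field calls every CONT array mock treated and every TET1-KD array 5-aza-dC treated. The question addressed was how these genes respond to an inhibitor of DNA methylation, whether the response differs between position clusters on the chromosome, and whether it differs when *TET1* is depleted.

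Most ZNF genes of chromosome 19 encode KRAB zinc finger proteins, a family of transcriptional repressors that has grown by repeated tandem duplication, so that neighbors are often close relatives. A KRAB protein binds DNA through its zinc fingers and recruits KAP1 (*TRIM28*), which brings in the histone methyltransferase SETDB1, HP1 proteins and histone deacetylases. Many members bind retroelements, and the 3′ ends of the genes themselves carry repressive histone marks. Promoters of several members are methylated and silent in tumors. 5-aza-dC is incorporated into DNA and traps DNA methyltransferases, so that methylation is lost as cells divide, and TET1 is an enzyme that oxidizes 5-methylcytosine.

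Promoters of 5 members are shown first, because they stand for the 2 patterns described later: genes that were off in every untreated clone and on in every treated one, and genes of a cluster near the centromere that were called higher in CONT and not in TET1-KD. Each is the window from 250 bases before to 50 bases after the annotated start, in the direction of transcription (RefSeq, GRCh38.p14). The first 3 are *ZNF671* (chr19:57727575-57727874, minus strand), *ZNF256* (chr19:57947657-57947956, minus strand) and *ZNF260* (chr19:36528222-36528521, minus strand), and capitals mark the CpG sites, where the methylation that 5-aza-dC removes can lie. These windows hold 11, 26 and 20 CpG sites.
ZNF671: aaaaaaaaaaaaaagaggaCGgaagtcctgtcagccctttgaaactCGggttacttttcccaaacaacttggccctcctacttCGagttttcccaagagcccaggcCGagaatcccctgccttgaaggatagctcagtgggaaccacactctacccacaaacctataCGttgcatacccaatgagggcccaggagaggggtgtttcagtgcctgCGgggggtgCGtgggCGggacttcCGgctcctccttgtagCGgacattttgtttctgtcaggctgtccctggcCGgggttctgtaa
ZNF256: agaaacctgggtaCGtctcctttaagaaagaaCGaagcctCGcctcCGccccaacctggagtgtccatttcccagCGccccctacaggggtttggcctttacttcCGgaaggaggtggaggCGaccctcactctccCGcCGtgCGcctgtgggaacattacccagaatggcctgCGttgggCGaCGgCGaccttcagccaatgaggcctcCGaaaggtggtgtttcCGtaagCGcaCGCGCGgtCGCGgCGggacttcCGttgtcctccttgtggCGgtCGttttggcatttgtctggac
ZNF260: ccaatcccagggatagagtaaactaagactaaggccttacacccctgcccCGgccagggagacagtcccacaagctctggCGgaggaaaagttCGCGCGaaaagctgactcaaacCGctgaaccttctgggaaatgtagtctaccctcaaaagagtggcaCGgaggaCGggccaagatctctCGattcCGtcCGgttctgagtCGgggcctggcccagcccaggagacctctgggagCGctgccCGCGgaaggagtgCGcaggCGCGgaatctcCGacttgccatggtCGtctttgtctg
The other 2 are *ZNF737* (chr19:20565732-20566031, minus strand) and *ZNF208* (chr19:22010894-22011193, minus strand), with 8 and 10 CpG sites. Capitals here mark CTGTCACTCAGG, the run of 12 letters that most promoters of that cluster share.
ZNF737: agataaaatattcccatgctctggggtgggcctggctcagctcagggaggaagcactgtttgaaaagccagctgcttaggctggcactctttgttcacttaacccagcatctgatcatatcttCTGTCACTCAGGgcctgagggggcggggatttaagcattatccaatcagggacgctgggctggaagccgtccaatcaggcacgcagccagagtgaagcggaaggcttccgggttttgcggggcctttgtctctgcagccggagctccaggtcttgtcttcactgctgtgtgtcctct
ZNF208: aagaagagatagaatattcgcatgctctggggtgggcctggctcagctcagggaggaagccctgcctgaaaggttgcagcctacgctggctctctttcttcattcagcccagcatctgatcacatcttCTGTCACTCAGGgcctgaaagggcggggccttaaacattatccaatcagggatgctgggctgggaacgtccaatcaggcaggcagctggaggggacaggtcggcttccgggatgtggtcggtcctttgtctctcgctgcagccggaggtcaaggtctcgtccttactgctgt
The run was picked because it is the most frequent one in the cluster, and it was looked for on both strands. It is present in 18 of the 26 cluster members that have a promoter in the table (69.2%), in 5 of 182 other members (2.75%) and in 38 of all 27305 genes of the table (0.139%).

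Facts of the whole series that touch these results are the following. Levels are log2 values of background-subtracted intensity, scaled to the 75th percentile of each array, and a value near 2 is the lower end of the scale. The number of arrays limits the precision, and the p-values measure the spread between 2 clones of a kind. Slide 1 held 6 arrays (all untreated ones and TET1-KD1 and TET1-KD2 after 5-aza-dC), and slide 2 held treated CONT1 and CONT2. A spike-in transcript of medium brightness differed by −1.01 between slide 2 and slide 1 (SD 0.038 among the 6 arrays of slide 1), and the brightest by −0.046. Slide and treatment therefore cannot be told apart in the control clones, nor in the difference between the kinds of clone. *TET1*, the targeted gene, was at 9.70 and 9.74 in untreated CONT1 and CONT2, at 8.65 in TET1-KD1 and at 9.41 in TET1-KD2, a difference of −0.69 ± 0.29 (SE, n = 2 clones against 2, adjusted p = 0.608, limma). By RT-qPCR, the paper reported lower *TET1* mRNA in both knockdown clones, with the larger reduction in TET1-KD1. Of 12 markers of colorectal epithelium, 10 were above background on all 8 arrays, *VIL1* on 2 treated arrays and *CEACAM5* on none.

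Markers of other cell types moved with the treatment. Among leukocyte markers, *CD14* was at 5.48, 5.59, 5.82 and 5.42 in untreated CONT1, CONT2, TET1-KD1 and TET1-KD2 and at 8.25, 8.34, 6.93 and 7.53 after 5-aza-dC, *PTPRC* was at 5.63, 5.82, 6.13 and 5.09 and at 7.41, 7.17, 5.87 and 5.53, and *CD3E* was above background on 1 untreated array and on no treated one. The 6 fibroblast markers summed to linear scaled signals of 344 to 455 on untreated and 650 to 908 on treated arrays, with *COL1A2*, *COL3A1* and *LUM* above background on no array. The 3 endothelial markers summed to 94.5 to 115 on untreated and 193 to 288 on treated arrays, where *VWF* was higher in both kinds of clone and *PECAM1* in CONT, and *CDH5* was lower in CONT (−2.09, adjusted p = 0.0192, 1 of 2 treated arrays above background). All arrays are from clones of the HCT116 line. The part of these signals in the results was not tested. In a bulk sample the number of cells of the line that express a gene cannot be told apart from its RNA per cell.

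In the control clones, more of the chromosome 19 ZNF genes were higher than lower after 5-aza-dC, on arrays whose slide cannot be told apart from the treatment. A gene entered the test when 1 of the 4 conditions or more had the probe above background on its 2 arrays, and its brightest such probe stands for it. Of the 245 genes, 208 were tested, 162 were above background on all 8 arrays and 29 on none. The median response (treated minus untreated log2 level of a clone) over the 208 genes was 0.92 in CONT1 and 0.87 in CONT2, 0.897 ± 0.04 (SD, n = 2), whereas it was −0.036 and −0.031 over all 19692 tested gene names. At an adjusted p-value below 0.05 (limma over all 8 arrays, Benjamini-Hochberg adjustment over all tested probes), 99 of the 208 genes were higher (47.6%) and 13 lower (6.25%). The share of all tested names was 20.6% higher and 21.0% lower.

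Part of this count follows from the filter, since 35 of the 208 genes were above background on both arrays of a treated condition only. Among the 162 members above background on all 8 arrays, 68 were higher (42.0%) and 12 lower (7.41%), against 15.4% and 20.5% of all 15347 such names, and the medians were 0.68 and 0.67. Each of the 4 control arrays carried weight: the 99 genes became 55 without the untreated CONT1 array, 48 without untreated CONT2, 49 without treated CONT1 and 62 without treated CONT2. Interpolating all arrays between spike-in signals moved the median of all probes by −0.246, and the split of the calls from 99 higher and 13 lower to 89 and 27.

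The knockdown clones had smaller median responses, 0.12 in TET1-KD1 and 0.41 in TET1-KD2, 0.263 ± 0.202 (SD, n = 2), against −0.049 and −0.058 over all tested names. Here 28 of the 208 genes were higher (13.5%) and 2 lower (0.962%), where the share of all tested names was 9.48% and 2.98%. Among the members above background on all 8 arrays, 10 of 162 were higher (6.17%) and 2 lower, against 3.51% and 3.56% of all such names. With the 6 arrays of the first slide alone, 24 members were higher and 1 lower. Quantile normalization changed the split from 28 higher and 2 lower to 24 and 5.

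The response was compared with that of the ZNF genes on other chromosomes and of the other genes on chromosome 19. The 245 tested ZNF genes elsewhere had medians of 0.15 and 0.16 in CONT1 and CONT2 and of −0.07 and −0.02 in TET1-KD1 and TET1-KD2, with 25.7% higher and 15.5% lower in the control clones. The 1114 other tested genes of chromosome 19 had medians of −0.08 in both control clones, −0.03 in TET1-KD1 and 0.03 in TET1-KD2, with 21.5% higher and 22.4% lower in the control clones. A response above 0 in all 4 clones was seen for 100 of the 208 members (48.1%), for 26.1% of the ZNF genes elsewhere, for 26.8% of the other chromosome 19 genes and for 24.2% of all tested names. Part of this follows from the filter, since 35 of the 208 entered through treated conditions only. Among genes above background on all 8 arrays, the shares were 42.0%, 21.2%, 19.8% and 18.2% in the same order. The member probes have a median GC content of 40.0%, as do those of the ZNF genes elsewhere, and the probes of all tested names one of 43.3%. Responses in the control clones varied with probe GC content, and removing that trend lowered the median of the members to 0.69 and the number of higher genes to 80.

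**Figure D1:**
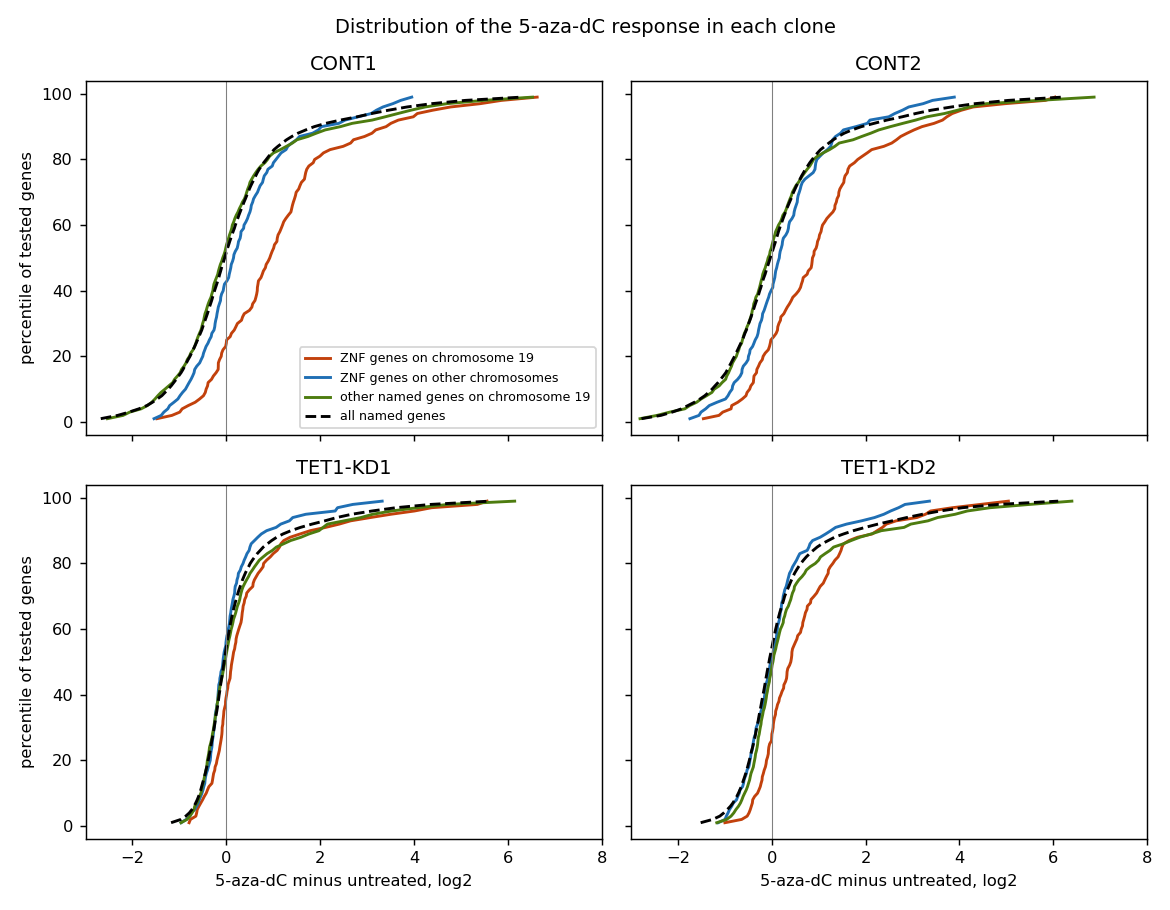
Percentiles of the 5-aza-dC response (x axis, treated minus untreated, log2) of tested genes in each of the 4 clones, for the chromosome 19 ZNF genes (n = 208), the ZNF genes of other chromosomes (n = 245), the other named genes of chromosome 19 (n = 1114) and all tested names (n = 19692). The curve of the chromosome 19 ZNF genes lies to the right of the other 3 at the median in all 4 clones, by most in CONT1 and CONT2.

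Some genes had no signal above background before treatment. Of the 208 genes, 17 (8.17%) were above background on no untreated array and on all 4 treated arrays, where 4.56% of all tested names did so. The rule for these genes used the detection calls of the same arrays, so that their rises are a description. All 17 passed the test in CONT and 15 in TET1-KD, *ZNF284* and *ZNF878* being the exceptions. The rule largely fixed this in advance, so these counts are no further support. Because the untreated levels were below background, the fitted rises are not measured sizes, and only bounds are given. In CONT these ran from at least 2.99-fold (*ZNF878*) to at least 19-fold (*ZNF260*), and in TET1-KD, over the 16 genes with a bound, from at least 1.27-fold (*ZNF347*) to at least 16.4-fold (*ZNF671*).

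*ZNF671*, a gene whose promoter is known to be methylated in several tumor types, was at 2.16 and 2.00 in untreated CONT1 and CONT2 and at 2.02 and 2.41 in untreated TET1-KD1 and TET1-KD2. After 5-aza-dC it was at 8.57, 8.18, 8.35 and 8.53 in the same order. The 4 clones reached similar levels after treatment. The untreated levels are below background and give only a bound. The rise was at least 16.8-fold in the control clones and at least 16.4-fold in the knockdown clones. Its probe lies at chr19:58231236-58231295.

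*ZNF256* rose from 2.29, 2.17, 2.17 and 2.50 in CONT1, CONT2, TET1-KD1 and TET1-KD2 to 8.93, 8.03, 7.95 and 8.06, at least 18.0-fold and 12.1-fold in the 2 kinds of clone. *ZNF260*, the homolog of a mouse regulator of cardiac genes, went from 2.20, 1.97, 2.01 and 2.40 to 8.94, 8.17, 7.54 and 6.89, at least 19-fold and 7.05-fold. The treated levels of *ZNF256* were alike in the clones apart from a higher CONT1, whereas those of *ZNF260* were lower in both knockdown clones than in both control clones. The pseudogene *ZNF542* behaved in the same way as *ZNF260* and rose at least 17.1-fold and 5.88-fold, from levels of 1.96 to 2.38 to levels of 8.80, 8.01, 7.38 and 6.53. *ZNF529*, next to *ZNF260* in the order along the chromosome, rose at least 12.8-fold and 3.24-fold. *ZNF541*, a gene of male germ cells, rose at least 11-fold and 5.10-fold, and *ZNF569* at least 8.13-fold and 5.15-fold. *ZNF534*, a repressor of the HERVH family of endogenous retroviruses, rose at least 7.66-fold and 4.69-fold.

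*ZNF404* rose at least 4.08-fold in the control clones and 3.45-fold in the knockdown clones, and *ZNF560* at least 3.25-fold and 2.13-fold. *ZNF432* was at 5.89, 6.09, 6.32 and 5.79 after treatment, levels that overlapped between the 2 kinds of clone. *ZNF132*, another gene methylated in cancers, was at 6.15, 6.25, 4.81 and 5.45, lower in both knockdown clones. *ZNF606*, *ZNF347* and *ZNF415* were also lower in both knockdown clones after treatment. Their promoters range widely: the 16 of the 17 genes with a promoter in the table hold 2 to 49 CpG sites, from *ZNF404* to *ZNF541*, with a median of 20, which is also the median of the members above background on all 8 arrays. Over all 208 members with a promoter in the table, 75% have more CpG sites than the median gene of the table (14).

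**Figure D2:**
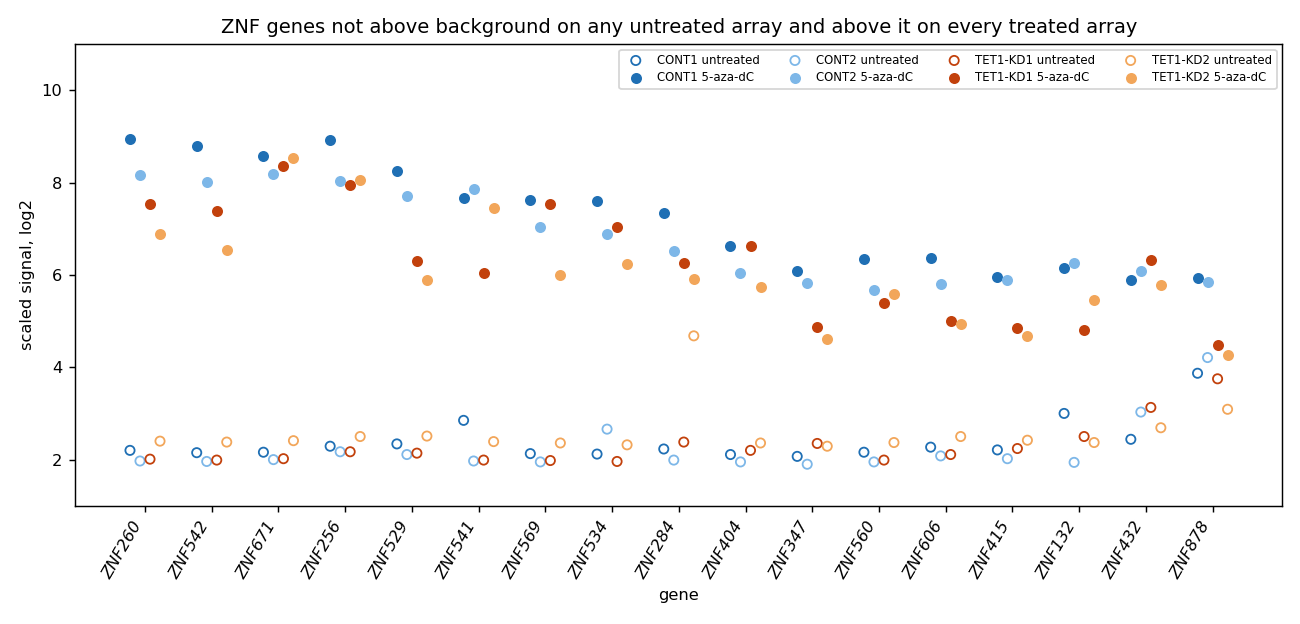
Scaled signal (log2) of the 17 ZNF genes that were above background on no untreated array (open circles) and on every treated array (filled circles), with the 4 clones side by side for each gene. *ZNF671* reaches like levels in all clones, and *ZNF256* does so apart from a higher CONT1. *ZNF260*, *ZNF542* and *ZNF529* end lower in TET1-KD1 and TET1-KD2 than in CONT1 and CONT2.

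Members in order of probe position were divided wherever the next probe began over 1 Mb further on, and 7 position clusters had at least 5 tested genes. They are called A to G from the short arm to the long arm end. Cluster A spans 7.09 to 9.87 Mb (16 of 16 genes tested), B 11.60 to 12.74 Mb (24 of 26), C 19.79 to 24.31 Mb (26 of 34), D 36.67 to 38.23 Mb (18 of 26), E 44.04 to 45.58 Mb (21 of 23), F 52.09 to 54.08 Mb (35 of 40) and G 56.00 to 58.99 Mb (51 of 59). A further 21 genes (17 tested) lie outside them.

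All 7 clusters had positive medians in both control clones, but they differed in size. Clusters F, D and C were highest, with median responses of 1.38 and 1.29, 1.34 and 1.24, and 1.33 and 1.23 in CONT1 and CONT2. Cluster A followed with 1.03 and 1.20, then E with 0.78 and 0.75, B with 0.59 and 0.66, and G with 0.66 and 0.40. The order of F, D and C was within the difference between the 2 clones, as was that of B and G, and which of F, D and C was highest changed with the processing. The place of D above A depended on the filter. Among genes above background on all 8 arrays, the CONT mean was 0.89 for both D and A, against 1.28 for C and 1.17 for F. Without a filter it was 0.95 for D and 1.11 for A. In CONT2 alone, A was also above D with normexp and with quantile normalization. The genes outside the clusters had medians near 0 in every clone. The highest cluster exceeded the lowest by 0.805 in CONT and by 0.654 in TET1-KD, and by 1.41 in the control clones when a gap of 0.5 Mb divided the clusters. There are 2 clones of each kind, so these are descriptions with no test.

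The order by the share of called genes was another one, with C second from the end. In the control clones, 13 of 18 genes of cluster D were higher, 11 of 16 of A, 21 of 35 of F, 10 of 21 of E, 22 of 51 of G, 10 of 26 of C and 8 of 24 of B (all tested names 20.6%). In the knockdown clones the numbers were 5, 4, 5, 3, 8, 0 and 1 in the same order (all tested names 9.48%). At that share few of 26 genes would be called, so the 0 of C carries little weight. Part of these counts follows from the filter. In the same order, 11, 14, 26, 15, 40, 22 and 19 of the tested genes were above background on all 8 arrays. The genes lower in the control clones were 4 in G, 2 in A, 2 in B, 1 in D, 1 in E and 3 outside the clusters, with none in C or F (all tested names 21.0%). Of the 17 genes that went from off to on, 5 lie in G, 4 in F, 3 in D, 2 in E and 1 each in A, B and outside the clusters (*ZNF541*), and none in C. Of all tested names 4.56% did so, a share at which few of 26 genes would be found, so their absence from C carries little weight.

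**Figure D3:**
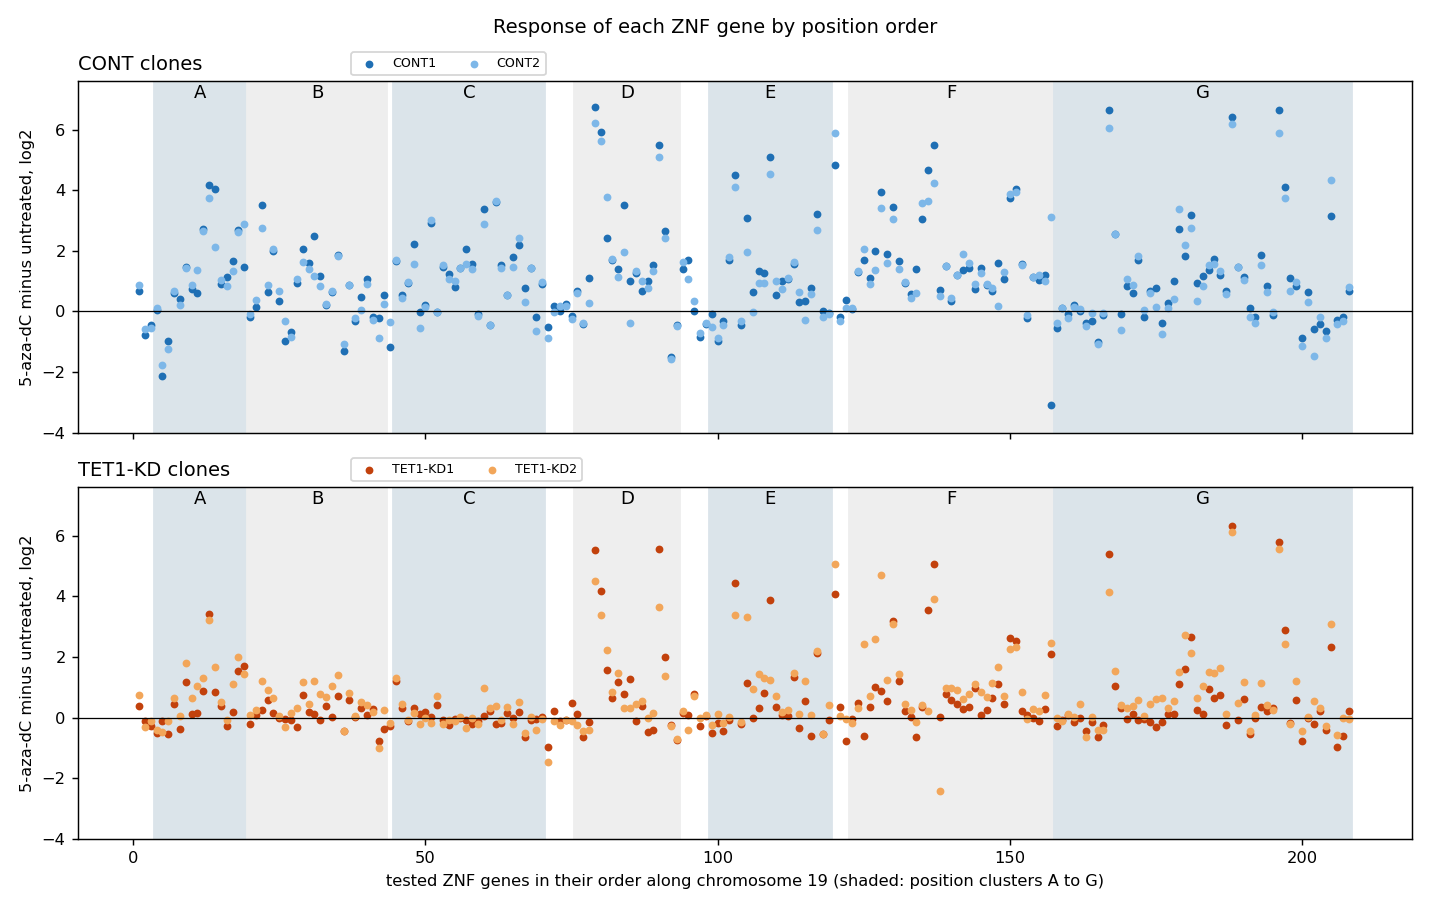
Response of each tested ZNF gene (y axis, treated minus untreated, log2) in its order along chromosome 19 (x axis, rank), for the control clones above and the knockdown clones below, with clusters A to G shaded. The highest points of D, F and G are genes below background before treatment, whose exact rise is not measured, while most genes of cluster C lie near 0 in both knockdown clones.

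Cluster C had the lowest median response in the knockdown clones. Its median response was −0.02 in TET1-KD1 and −0.03 in TET1-KD2, against 1.33 and 1.23 in the control clones. The other 6 clusters had knockdown medians of 0.04 to 0.51 in TET1-KD1 and 0.38 to 0.85 in TET1-KD2, so C was lowest in both clones. Averaged over TET1-KD1 and TET1-KD2 it was also lowest under each of the 6 other scalings and filters for which cluster medians were computed (normexp, quantile, spike-in interpolation, no filter, all 8 arrays above background, GC trend removed), with a mean of −0.06 to 0.01 in the knockdown clones and 1.00 to 1.28 in the control clones. The margin was small in some of these. Among genes above background on all 8 arrays, the knockdown mean was −0.04 for C, 0.01 for D and 0.02 for E. There D had a mean of 0.89 in the control clones. Under quantile normalization the knockdown mean was −0.02 for C and 0.01 for E. In TET1-KD1 alone, B (−0.08) and E (−0.15) were below C (−0.01) under quantile normalization, D (−0.11), E (−0.09) and G (−0.04) were below it (−0.02) among genes above background on all 8 arrays, and E equaled it with normexp (−0.01). A response over 1 was seen for 14 and 15 of the 26 genes in CONT1 and CONT2 and for 1 gene, *ZNF101*, in each of TET1-KD1 and TET1-KD2. Of the 26 genes, 22 were above background on all 8 arrays, and 12 and 13 of these exceeded 1 in CONT1 and CONT2. Over all 208 genes, responses over 1 numbered 98, 92, 35 and 58 in CONT1, CONT2, TET1-KD1 and TET1-KD2.

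**Figure D4:**
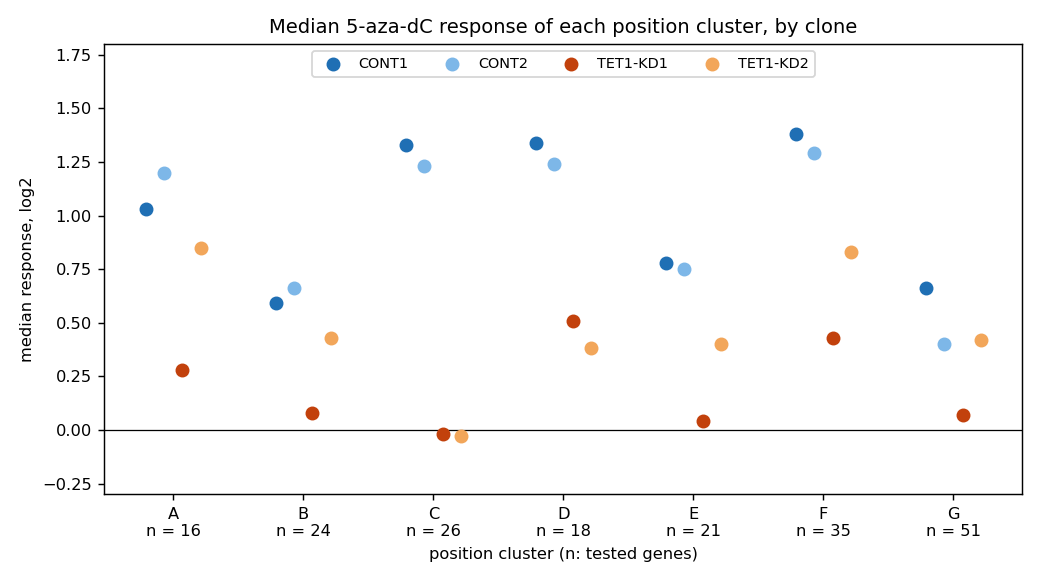
Median 5-aza-dC response (log2) of the tested genes of clusters A to G, with 1 point per clone and the number of tested genes under each letter. Both knockdown clones lie at −0.02 and −0.03 in cluster C, where CONT1 and CONT2 reach 1.33 and 1.23.

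The largest rises of cluster C were those of *ZNF676*, *ZNF208* and *ZNF737*. *ZNF676*, which binds long terminal repeats of endogenous retroviruses, was at 5.12 and 4.55 in untreated CONT1 and CONT2 and at 8.73 and 8.18 after 5-aza-dC. In TET1-KD1 and TET1-KD2 it was at 5.97 and 4.63 untreated and at 5.76 and 5.01 treated. The treated control arrays lay above all 6 others, and the treated knockdown arrays within the range of the untreated ones. The response was 3.62 ± 0.51 in the control clones (SE, n = 2, adjusted p = 0.0027) and 0.09 ± 0.51 in the knockdown clones (adjusted p = 0.932), and the difference of −3.53 ± 0.71 passed the test (adjusted p = 0.0458, limma).

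*ZNF737* went from 6.47 and 5.90 to 9.40 and 8.92 in CONT1 and CONT2, and from 7.17 and 5.95 to 7.17 and 5.77 in TET1-KD1 and TET1-KD2. *ZNF208* went from 4.33 and 4.27, below background, to 7.72 and 7.17 in the control clones, a rise of at least 8.66-fold, and from 5.39 and 3.36 to 5.45 and 4.34 in the knockdown clones. The differences in response, −3.07 and −2.62, missed the threshold (adjusted p = 0.0858 and 0.166, limma). That of *ZNF208* is a fitted value and not a measured size, because its untreated control levels are below background. The pattern did not cover the whole cluster. *ZNF101*, first in its position order, was called in the control clones (1.68, adjusted p = 0.00692) and had a response of 1.24 in the knockdown clones (adjusted p = 0.0503), and *ZNF90*, *ZNF100*, *ZNF257* and *ZNF626* had responses of −0.45 to −0.02 in the control clones. *ZNF93*, a repressor of L1 elements, had a response of 1.89 (adjusted p = 0.00965) in CONT and 0.25 in TET1-KD. *ZNF726* had the lowest mean response of the cluster, with 5.90 and 5.53 untreated and 5.73 and 4.88 treated in the control clones.

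**Figure D5:**
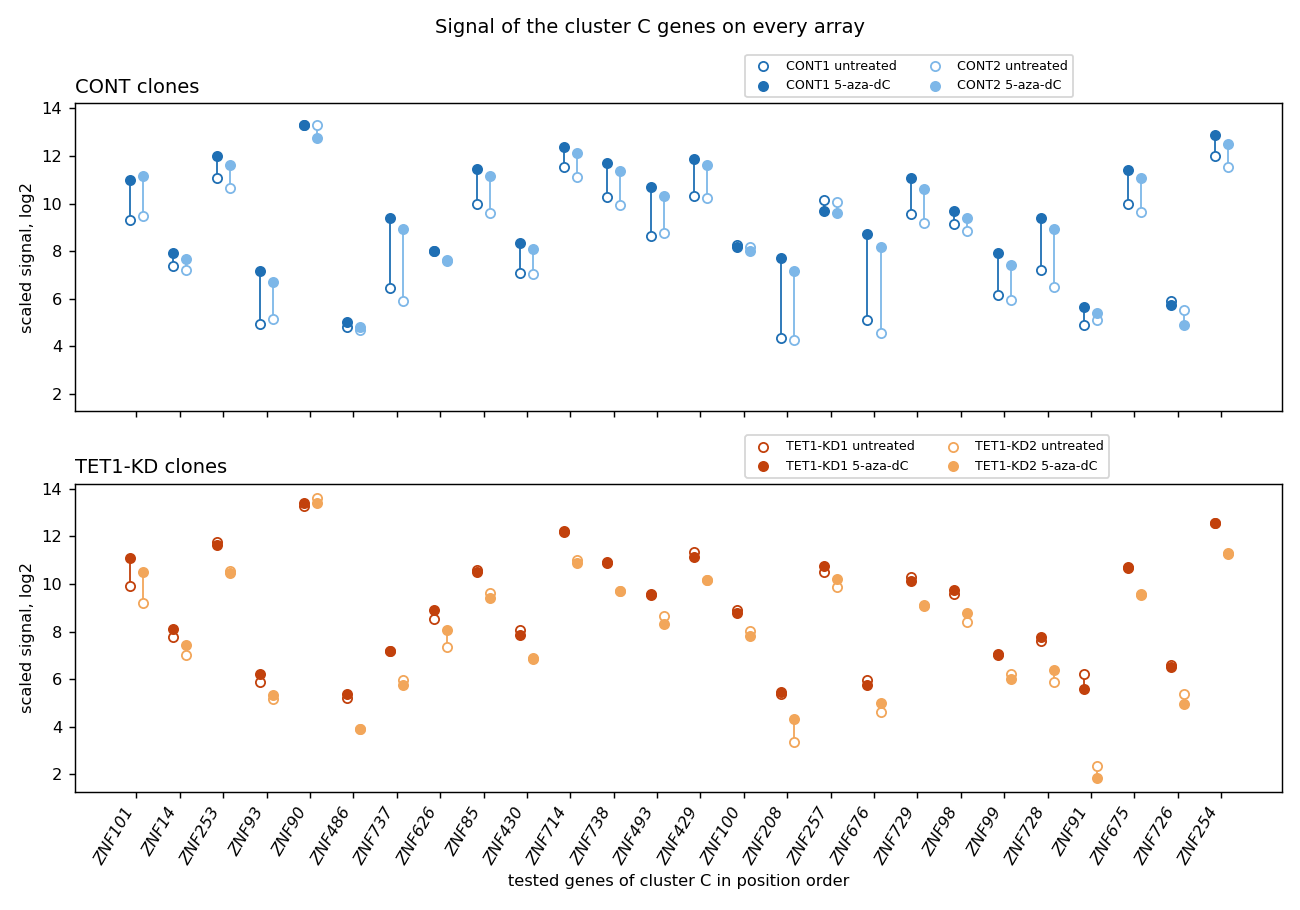
Scaled signal (log2) of the 26 tested genes of cluster C in position order, with untreated (open) and 5-aza-dC (filled) arrays of each clone joined by a line, control clones above and knockdown clones below. The lines are long for *ZNF676*, *ZNF737* and *ZNF208* in CONT1 and CONT2 and short for nearly all genes in TET1-KD1 and TET1-KD2. Untreated *ZNF208* is below background in CONT1 and CONT2, so the length of its lines there is not a measured size.

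The promoters of cluster C held a median of 10 CpG sites in 300 bases (19 genes), against 17 to 23 in the other 6 clusters. TET1-KD1 had the highest untreated level of the 4 clones in 25 of the 26 genes, and it exceeded TET1-KD2 by a median of 1.18 untreated and 1.06 treated, against 0.43 untreated for the other members. The probes of the cluster are more alike than those elsewhere. The nearest probe of another ZNF gene differed by a median of 11.5 edits out of 60 bases, and by 8 at the closest, against medians of 20.5 to 23 edits in the other clusters, so signal shared between close relatives cannot be told apart from each gene's own.

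Across the 208 genes, both knockdown responses were below both control responses in 117 (56.2%), where 32.1% of all tested names showed this. By cluster these were 20 of 26 in C, 14 of 18 in D, 23 of 35 in F, 10 of 16 in A, 24 of 51 in G, 11 of 24 in B and 9 of 21 in E. The difference in response passed the test for 8 genes with a more negative response in the knockdown clones (3.85%, all tested names 1.67%) and for 1 with a more positive one (0.481%, all tested names 3.61%). With clone as a block (each clone's treated and untreated array) 18 and 2 genes passed, and leaving out any 1 array gave 0 to 6 and 0. After the GC trend was removed 4 and 0 passed.

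The 8 genes lie in 6 clusters. *ZNF833P*, a pseudogene of cluster B, was at 8.44 and 8.09 in treated CONT1 and CONT2 and at 5.76 and 6.25 in treated TET1-KD1 and TET1-KD2, from untreated levels of 4.93 to 5.52, a difference in response of −2.40 ± 0.39 (SE, adjusted p = 0.0282). *ZNF441* of the same cluster was at 7.85 and 7.89 and at 6.70 and 6.73, from untreated levels of 5.83 to 6.56, a difference of −1.63 ± 0.27 (adjusted p = 0.0284). *ZNF266* of cluster A, at 10.31 and 10.20 against 9.29 and 9.23 after treatment, rose in both kinds of clone, by 2.69 and by 1.09. It therefore differed in size of the response and not in direction. *ZNF529*, *ZNF347* and *ZNF415* also rose in both kinds of clone. Their untreated levels were below background, so only the treated levels can be compared.

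*ZNF347* and *ZNF415* are next to each other in the order of cluster F. Treated *ZNF347* was at 6.09, 5.83, 4.88 and 4.61 in CONT1, CONT2, TET1-KD1 and TET1-KD2, and treated *ZNF415* at 5.96, 5.90, 4.86 and 4.68, while both were at 1.90 to 2.42 untreated, below background. The fitted difference, which is not a measured size, was −1.55 ± 0.25 for *ZNF347* (adjusted p = 0.0272) and −1.37 ± 0.23 for *ZNF415* (adjusted p = 0.0284). *ZNF460* of cluster G was at 8.77 and 8.55 after treatment in CONT1 and CONT2 and at 7.30 and 7.6 in TET1-KD1 and TET1-KD2.

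*ZNF607* of cluster D was the one gene with the opposite sign. It was bright on all arrays, at 11.74, 11.82, 11.76 and 11.86 in the untreated clones, and at 10.24 and 10.24 in treated CONT1 and CONT2 and 11.51 and 11.59 in treated TET1-KD1 and TET1-KD2. It fell by 1.54 in the control clones (SE 0.14, adjusted p = 0.000552) and had a response of −0.26 in the knockdown clones (adjusted p = 0.286). The difference of 1.28 ± 0.20 had an adjusted p-value of 0.0224. Another 12 members were lower in the control clones. Among genes measured on both sides, the largest falls were those of *ZNF358* (1.96), *ZNF607*, *ZNF414* (1.12) and *ZNF787* (1.05) on the log2 scale, the last of these from 9.88 and 9.92 to 8.86 and 8.83. *ZNF563* was not above background on the treated control arrays, and its fall was at least 1.14-fold. *ZNF576* and *ZNF544*, with the lowest mean responses of clusters E and G, had fitted responses of −0.92 and −1.0 in CONT. In the knockdown clones *ZNF490* fell by 0.90 (adjusted p = 0.0356) and *ZNF324B* by 0.78 (adjusted p = 0.0412), while neither passed the test in the control clones. Both calls were lost when only the 4 arrays of the knockdown clones were fitted.

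In the untreated clones, TET1-KD was compared with CONT, a comparison of 2 clones with 2 in which *TET1* itself missed the threshold on the array. No member passed the test in either direction (all tested names 0.0102% each way), and the methods' t-test with the same adjustment called none either. An unadjusted limma p-value below 0.05 was found for 8 of the 208, and for 1628 of all 19692 tested names, a larger share. The median difference, TET1-KD minus CONT, was 0.164, against 0.018 over all tested names. The 2 knockdown clones differed by more than this. Untreated TET1-KD1 exceeded untreated TET1-KD2 by a median of 1.18 in cluster C and 0.43 in the other members.

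Of 10 members known to be methylated at their promoters in cancers, 5 were tested. *ZNF671* and *ZNF132* rose in both kinds of clone. *ZNF177* had a response of 1.00 in the control clones (adjusted p = 0.159) and 0.60 in the knockdown clones, and *ZNF667* of −0.35 and 0.37. *ZNF331*, an imprinted gene, was at 10.19 in untreated CONT1 but at 3.22, 4.38 and 2.66 in the other clones, and at 7.10, 6.35, 6.48 and 5.10 after 5-aza-dC. Its level thus fell in CONT1 and rose in the 3 other clones. *ZNF154*, *ZNF382*, *ZNF471*, *ZNF582* and *ZNF677* did not pass the filter, with *ZNF154* at 2.32 to 3.20 untreated and at 4.45, 5.04, 3.92 and 4.67 treated.

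Another 14 members with known partners or targets were all tested, and 10 of them were above background on all 8 arrays. In CONT 8 were higher (all tested members 47.6%, all tested names 20.6%) and in TET1-KD 2 (13.5% and 9.48%), with none lower. Part of these counts follows from the filter. *ZNF274*, which recruits SETDB1 to the 3′ ends of zinc finger genes, was one of the 2 and had the same response in both kinds, 0.89 and 0.90 (adjusted p = 0.0191 and 0.0477), from 7.82, 7.93, 8.35 and 7.80 to 8.65, 8.89, 8.94 and 9.0. *ZNF534* was the other. *ZNF808* (1.49), *ZNF765* (1.15), *ZNF224* (0.77) and *ZNF417* (0.73) were called in the control clones, and had responses of 0.89, 0.14, 0.52 and 0.32 in the knockdown clones. *ZNF587*, a near copy of *ZNF417* and like it a repressor of HERV-K, had a response of −0.28 in the control clones (adjusted p = 0.283). *ZNF350*, a partner of BRCA1, *ZNF649*, *ZNF304* and *ZNF473*, a factor of histone mRNA processing, did not pass the test in either kind. *ZNF91*, the repressor of SVA elements, was at 4.88, 5.12, 6.24 and 2.37 in the untreated clones and at 5.64, 5.42, 5.60 and 1.86 in the treated ones, so TET1-KD2 stood apart with either treatment.

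Of 16 genes of the KAP1 pathway, through which KRAB proteins act, all were above background on all 8 arrays. In CONT 4 were higher and 4 lower, near the shares of all tested names (20.6% and 21.0%), and in TET1-KD none was higher and 2 were lower (all tested names 9.48% and 2.98%). *TRIM28* itself was at 14.20, 14.31, 14.23 and 14.30 untreated and at 13.69, 13.76, 13.58 and 13.75 treated, which was 0.53 lower in the control clones (adjusted p = 0.0297) and 0.60 lower in the knockdown clones (adjusted p = 0.0489). *HDAC1* fell with it, by 0.73 and 0.69. *CBX3*, one of the HP1 genes, was 0.96 higher in the control clones and 0.02 higher in the knockdown clones, and *CBX5* was 1.17 lower in the control clones.

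Zinc finger genes of chromosome 19 with other names were taken from a list of 17, of which 13 were tested. Of these, 7 were higher and 1 lower in CONT (all tested names 20.6% and 21.0%), and 6 were higher and none lower in TET1-KD (9.48% and 2.98%). Only 5 of the 13 were above background on all 8 arrays, so part of these counts follows from the filter. *ZSCAN5B*, which was below background in all untreated clones at 2.10 to 2.81, reached 11.53, 10.07, 10.33 and 11.13. *ZSCAN18* and *ZFP82*, also below background in all untreated clones, rose in both kinds of clone. *ZIK1*, below background in untreated TET1-KD1 and TET1-KD2, rose in both kinds too. So did *ZSCAN4*, which was at 5.43 in untreated CONT2 and at 2.16, 2.00 and 2.39 in the other clones. *ZFP30* was at 9.70 and 9.58 in treated CONT1 and CONT2 and at 8.42 and 8.34 in treated TET1-KD1 and TET1-KD2, from 8.14 to 8.33 untreated. Its difference in response passed the test (adjusted p = 0.0303).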

How the data were processed

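Total RNA of each clone was labeled with 1 dye and hybridized to an Agilent SurePrint G3 Human GE array. Per the file headers and labels, Agilent Feature Extraction 10.7 produced the deposited intensity values (gProcessedSignal), which the authors had background-subtracted but not normalized between arrays. The paper's methods name GeneSpring GX and t tests with Benjamini-Hochberg correction. Here each array was divided by its 75th percentile and brought to a common level, with a floor of 1 before log2. Flagged spots were left out and spots of a probe averaged. Probes above background (at least 0.5 of their spots) on both arrays of 1 condition or more were tested (27287 probes) with limma 3.58.1 in R 4.3.3, as 4 group means over all 8 arrays, with Benjamini-Hochberg adjustment and a threshold of 0.05. The fit was tested on simulated data. Below background, a rise is given as a bound, the treated mean against, per untreated array, the higher of the probe's own signal and the lowest signal well above background.

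Groups followed the array titles. Treated and untreated arrays of 1 clone are paired by the clone, and their deviations correlated with r = 0.198 in CONT and 0.476 in TET1-KD. Alternatives were other scalings, filters, probe averages, sample sets, a GC correction, the methods' t-test, the clone block and each array left out. The members and gene lists were chosen with earlier results of these data known. Genes named were the largest 8 rises and 5 falls of each contrast among called members moved the same way in both clones, the smallest interaction p-values, the listed genes and each cluster's highest and lowest mean response. The other genes named, among them those of cluster C and of the off-to-on set, were chosen after their values were seen. Number of arrays, not depth, limits the precision. 1 marker gene is not reported here.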

Additional observations from a re-analysis of the deposited data

Results flagged for a closer look

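The difference in 5-aza-dC response between the kinds of clone passed the test (limma, Benjamini-Hochberg adjusted p below the threshold) for 9 of the 208 genes. As TET1-KD minus CONT on the log2 scale, it was 1.28 for *ZNF607* and, in the opposite direction, −3.53 for *ZNF676*, −2.40 for *ZNF833P*, −1.99 for *ZNF529*, −1.63 for *ZNF441*, −1.60 for *ZNF266*, −1.55 for *ZNF347*, −1.52 for *ZNF460* and −1.37 for *ZNF415*. For *ZNF529*, *ZNF347* and *ZNF415* the untreated levels are below background. Each gene kept its sign under every alternative run, but not its call. The replicate block and the other filters leave the fitted difference of a probe as it is, so its sign could not change there. Apart from arrays left out, the call held in 3 of 9 settings for *ZNF347*, 4 of 9 for *ZNF529*, 5 of 9 for *ZNF415* (adjusted p up to 0.225), 7 of 9 for *ZNF676*, 6 of 10 for *ZNF833P* and *ZNF460*, and 7 of 10 for *ZNF607*, *ZNF441* and *ZNF266*. With 1 array left out, each stayed past the threshold in 0 or 1 of 8 fits. Treated CONT1 and CONT2 are the 2 arrays of slide 2, so slide and treatment cannot be told apart in these differences.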

How the results depend on the processing

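No summary value changed sign, though only the medians could, since counts and spreads are never negative. For single genes, 57 results that had passed the threshold kept their direction in all 1107 recomputed values, of which 214 lost the threshold. The t-test, the replicate block and the fits to the 4 arrays of the contrast or to slide 1 leave the fitted change as it is. So do dropping the filter and requiring all 8 arrays above background, where the same probe stands for the gene. Leaving out an array of the other kind of clone does not alter a response within 1 kind. The value table of the series matrix deviates by at most 0.497%. Direction could not differ, or hardly could, in these, so its constancy was largely fixed in advance. For genes higher in TET1-KD after 5-aza-dC (28), the methods' t-test gave 0 and a fit to probes above background on all 8 arrays, adjusted over those alone, 8, and leaving out 1 array 20 to 41. For genes lower in TET1-KD (2), requiring a 2-fold change, no filter, the 4 arrays of the contrast and the t-test each gave 0, slide 1 alone 1, normexp and quantile normalization 5 each, and leaving out 1 array 0 to 1. For genes higher in CONT (99), the t-test gave 38 and leaving out 1 array 48 to 110. For genes lower in CONT (13), the t-test and a 2-fold change each gave 6, spike-in interpolation 27 and leaving out 1 array 5 to 13. For a more positive response in TET1-KD (1), spike-in interpolation gave 5, the replicate block 2, and no filter, the GC correction and the GC correction with replicate block 0, as did leaving out 1 array. For a more negative one (8), no filter gave 0, the replicate block 18, the GC correction 4, the GC correction with replicate block 5 and leaving out 1 array 0 to 6. The cause of these shifts was not tested. The replicate block moved no other count by more than 1.5 times. Between untreated clones, where only the number is shared (r = −0.114), 0 genes passed in every fit. The median CONT response (0.897) was 0.626 with normexp, 0.756 with quantile normalization, 0.809 with spike-in interpolation, 0.67 on all 8 arrays, 0.692 with the GC correction with or without the block, and 0.868 to 0.925 with 1 array left out. The CONT cluster spread (0.805) was 1.407 and 0.643 with gaps of 0.5 and 2 Mb, 0.569 with normexp, 0.893 with spike-in interpolation, 1.169 without a filter, 1.092 on all 8 arrays and 0.79 to 0.894 with 1 array left out. The TET1-KD median (0.263) and cluster spread (0.654) ran from 0.12 to 0.406 and from 0.529 to 0.882 with 1 array left out. Spike-in interpolation moved the median CONT response of all probes by −0.246, quantile normalization by −0.116 and no filter by 0.352. With 2 clones of each kind and no treated CONT array on slide 1, no fit could separate slide from treatment there.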

Other observations

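Some members differed widely between the 4 untreated clones. The range of the untreated levels over the clones had a median of 0.67 on the log2 scale, and it was above 2 for 14 of the 208 genes. *ZNF578*, with the lowest mean response of cluster F, was at 5.14, 4.93 and 6.10 in untreated CONT1, CONT2 and TET1-KD1 and at 8.13 in TET1-KD2, and after 5-aza-dC at 5.85, 5.44, 6.12 and 5.69. It was thus high on a single array, and the treated arrays lay close together.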
